A study of Homo sapiens with 10 samples.

Results

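A set of 10 regulators of the primitive streak and the mesoderm was read from the deposited table of TPM, a unit of transcript abundance in which a gene's level is scaled to its length and to a common total per library. The genes are TBXT, MIXL1, EOMES, MESP1, TBX6, PDGFRA, MEOX1, FOXF1, TBX3 and GATA4. They were chosen by gene symbol alone, and all 10 were among the 64940 genes of the table that were used. A total of 4 RNA-seq libraries were measured, with n = 2 libraries per group. All 4 came from H9, a line of human embryonic stem cells (hESCs). The control libraries are labelled as wild-type cells that had differentiated spontaneously, and the oeDAZL libraries as human primordial germ cell-like cells (hPGCLCs) overexpressing DAZL, a germ cell RNA-binding protein. The series' own design text calls the controls wild-type PGCLCs as well, so an effect of DAZL and one of the culture cannot be told apart. The study's methods deliver DAZL by lentivirus together with a GFP reporter, and they do not state for these libraries whether the controls carried a GFP virus. No source says that the replicates were separate cultures, so p-values measure only the spread between libraries, which may be technical. The miRNA-seq groups shLacZ, shDAZL_4 and shDAZL_6 were not analysed here.

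The primitive streak is the strip of the gastrulating epiblast through which cells leave to form mesoderm and endoderm. BMP4, WNT3 and NODAL signals induce it and switch on TBXT, EOMES and MIXL1 in the cells about to leave. MESP1 and TBX6 then mark cells on the way to cardiac and paraxial mesoderm, whereas FOXF1 and HAND1 mark lateral plate and extra-embryonic mesoderm. When hPGCLCs are induced from stem cells, the cells pass briefly through a state resembling early mesoderm, in which EOMES is needed.

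DAZL itself was read first as a check of the labels. DAZL was listed at 0 and 0.0333 TPM in the controls and at 102 and 101 TPM in oeDAZL, a difference of 6.65 on the log2(TPM + 1) scale (SE 0.11, limma adjusted p = 1.76e-05). The germ cell markers were uneven under either label. NANOS3, which protects germ cells from death, was listed at 1.39 and 1.66 TPM in the controls and 1.07 and 0.732 TPM in oeDAZL. SOX17, the factor that opens the human germ cell programme, was listed at 3.35 and 2.52 TPM against 2.63 and 3.19 TPM. TFAP2C, a factor of germ cells and of trophoblast, was higher, at 53.9 and 49.1 TPM against 44.3 and 50.4 TPM, and the 9 germ cell markers summed to between 148 and 166 TPM. The 9 markers of amnion and trophoblast summed to between 4215 and 4558 TPM per library, most of it IGFBP3 and GABRP. The 10 regulators summed to between 220 and 249 TPM, most of it TBX3. No read depth can be recovered from TPM, so depth is unknown and a value of 0 says only that the gene is listed at 0.

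Control replicate 1 often stood highest for these genes. It held the highest value of 7 of the 10 regulators and the lowest of 2. Control replicate 2 held the highest value of none, and oeDAZL replicate 1 the lowest of 6. The matching shares over all genes were not computed. Control replicate 1 was above control replicate 2 for 8 of the 10, among them the 3 too low to be tested, against 58.3% of all tested genes. The results below are therefore given with the value in each library. In bulk RNA, fewer cells of a type and less RNA per cell cannot be told apart.

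Promoter sequence is shown for TBXT, whose level differed most between the groups among the 7 regulators tested, and for MIXL1, which stands beside it in the streak and whose groups overlapped. The TBXT window (GRCh38.p14, minus strand, chr6:166167852-166168101) holds the 250 bases before a RefSeq transcript start and contains no annotated exon of the gene. The MIXL1 window (plus strand, chr1:226223414-226223617) holds the 204 bases before the first annotated exon base. Both are printed 5′ to 3′ along the gene, with capitals marking matches to CTTTGA, the core bound by the WNT effectors TCF and LEF, and to GTCTG, the box bound by SMAD proteins, on either strand.
TBXT: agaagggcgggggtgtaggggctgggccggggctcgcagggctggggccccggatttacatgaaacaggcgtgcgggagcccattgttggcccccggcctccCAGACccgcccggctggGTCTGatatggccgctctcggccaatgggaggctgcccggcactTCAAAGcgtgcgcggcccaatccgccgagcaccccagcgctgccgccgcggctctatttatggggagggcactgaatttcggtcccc
MIXL1: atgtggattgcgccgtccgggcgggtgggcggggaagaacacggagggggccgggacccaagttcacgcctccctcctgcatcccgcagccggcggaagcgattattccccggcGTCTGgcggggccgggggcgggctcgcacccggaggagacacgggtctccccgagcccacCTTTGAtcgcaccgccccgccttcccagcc

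The TBXT window held 1 match to the TCF/LEF core and 2 to the SMAD box, and the MIXL1 window 1 of each. A second TBXT window of RefSeq, which reaches into the annotated first exon (chr6:166168656-166168905) and is not printed, held 0 of either. Among 35116 RefSeq promoter windows of 250 bases, 11.2% held the TCF/LEF core and 38% the SMAD box. The T-box core GGTGTGA, the sequence that TBXT and its relatives bind, was found in 2.76% of all windows and in none of the 7 windows that RefSeq gave for TBXT, MIXL1, EOMES, TBX6 and PDGFRA. A match is a run of letters and not a measured binding site.

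TBXT, also called Brachyury, is the T-box factor that defines the streak and the notochord. It lies on chromosome 6 (hg38, 166157656 to 166168700, minus strand, 8 exons) and shares exon bases with an antisense RNA, LNCDAT, whose own values were not analysed here. It was listed at 2.49 and 1.25 TPM in the controls and at 0.319 and 0.546 TPM in oeDAZL. Both oeDAZL libraries thus lay below both controls, but the controls themselves differed 1.99-fold. The means were 1.87 ± 0.876 TPM (SD, n = 2) in the controls and 0.432 ± 0.161 TPM in oeDAZL, a ratio of 4.33 in linear TPM. On the log2(TPM + 1) scale, which understates the change of low genes, the difference was -0.97 (SE 0.30, 95% interval -1.71 to -0.23). The limma p was 0.0180 unadjusted and 0.173 after adjustment over 16687 genes, so TBXT did not pass the adjusted threshold. Its unadjusted p passed 0.05, as did that of 15.2% of all tested genes in the same direction. TBXT passed the filter of a mean of 1 TPM only through the control group. TBXT was called lower, at a fold of at least 2, with a pseudocount of 0.1 (-1.85), without mitochondrial genes (-1.04), without control replicate 2 (-1.29) and without oeDAZL replicate 2 (-1.09). Without control replicate 1 the difference was -0.66 with an unadjusted p of 0.0958, and without oeDAZL replicate 1 it was -0.86 with 0.0635.

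The other regulators of the streak were as low as TBXT in the controls. MIXL1, a homeobox factor induced by NODAL signalling (chromosome 1, 226223618 to 226227060, plus strand), was listed at 2.48 and 2.34 TPM in the controls and 1.59 and 2.60 TPM in oeDAZL. The highest and the lowest value both belonged to oeDAZL libraries, so the groups overlapped, and the difference was -0.16 (SE 0.23, 95% interval -0.73 to 0.41, adjusted p = 0.737). EOMES, the T-box factor of streak and endoderm (chromosome 3, 27715949 to 27722711, minus strand), was listed at 1.02 and 0.600 TPM in the controls against 0.408 and 0.744 TPM. These groups overlapped as well. Its mean was below 1 TPM, so it was fitted only without the filter on low values, where the difference was -0.20 with an adjusted p of 0.691.

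MESP1, the basic helix-loop-helix factor of the earliest cardiac mesoderm (chromosome 15, 89749875 to 89751249, minus strand), was the lowest of the 10. It was listed at 0.497 and 0.341 TPM in the controls and at 0 and 0.0710 TPM in oeDAZL. The groups did not overlap, and the difference in the fit without the filter was -0.45 (95% interval -0.73 to -0.18) with an unadjusted p of 0.0103 and an adjusted p of 0.329. In that fit 9.04% of 33251 genes were lower at an unadjusted p of at most 0.05. TBX6, the T-box factor of paraxial mesoderm (chromosome 16, 30085793 to 30091924, minus strand), was listed at 2.20 and 1.47 TPM in the controls and 1.59 and 1.07 TPM in oeDAZL. The groups overlapped, with a difference of -0.28 (SE 0.25, 95% interval -0.90 to 0.34, adjusted p = 0.569).

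**Figure D1:**
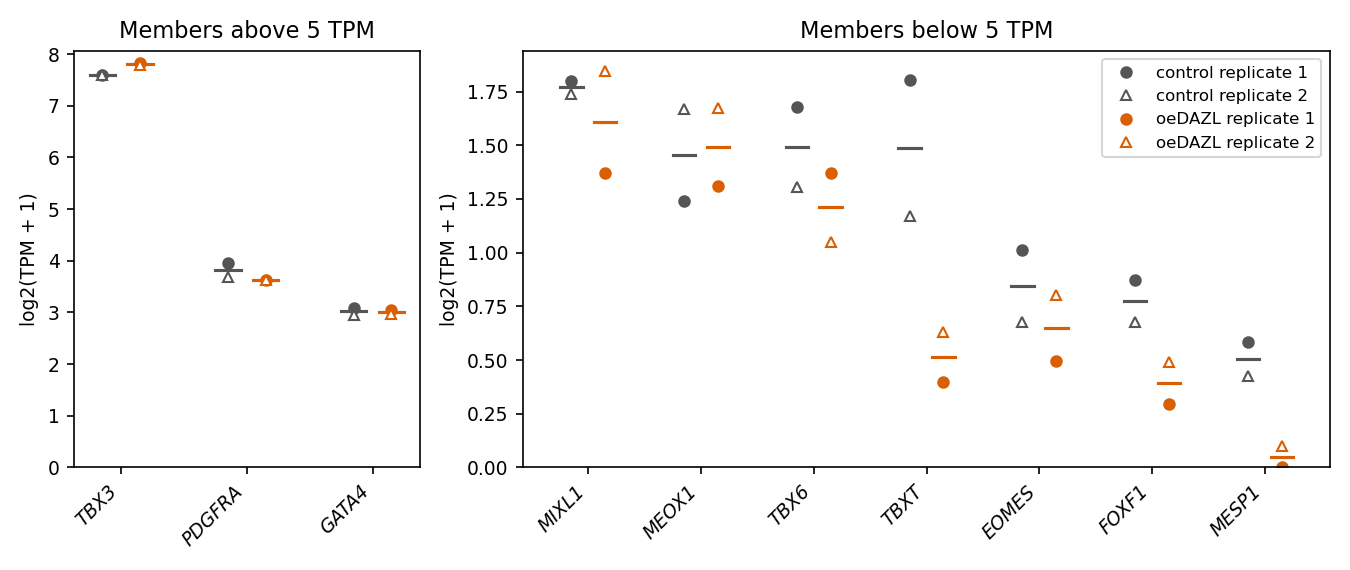
Level of the 10 regulators in each of the 4 libraries, on the log2(TPM + 1) scale, with genes above and below 5 TPM in panels of separate scales and a dash at the mean of each group. TBX3 stands far above the others at 192 to 225 TPM, and the values of TBXT, PDGFRA, FOXF1 and MESP1 in both oeDAZL libraries lie below both controls.

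PDGFRA, the receptor tyrosine kinase of nascent mesoderm and mesenchyme (chromosome 4, 54229280 to 54298245, plus strand, 23 exons), was listed at 14.6 and 11.9 TPM in the controls and 11.3 and 11.4 TPM in oeDAZL. Both oeDAZL libraries lay below the controls by less than the controls differed from each other, with a difference of -0.20 (SE 0.13, 95% interval -0.51 to 0.11, adjusted p = 0.431). Without control replicate 2 the difference was -0.33 with an unadjusted p of 0.0323. A same-strand gene that shares exon bases with PDGFRA was listed at 0 in all 4 libraries. GATA4, a zinc finger factor of heart and endoderm (chromosome 8, 11676959 to 11760002, plus strand), was listed at 7.53 and 6.73 TPM against 7.31 and 6.79 TPM. The oeDAZL values lay inside the control range, and the difference was -0.01 (SE 0.13, 95% interval -0.34 to 0.31, adjusted p = 0.968). The direction turned with the scaling of the libraries, with a highest value of 0.11.

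MEOX1, the homeobox factor of somites (chromosome 17, 43640389 to 43661922, minus strand), was listed at 1.36 and 2.18 TPM in the controls and 1.48 and 2.19 TPM in oeDAZL. Replicates differed more than groups, and the difference was 0.04 (SE 0.26, 95% interval -0.59 to 0.67, adjusted p = 0.953). FOXF1, the forkhead factor of lateral plate and extra-embryonic mesoderm (chromosome 16, 86510527 to 86515422, plus strand), was listed at 0.829 and 0.601 TPM in the controls against 0.226 and 0.403 TPM. The groups did not overlap, and in the fit without the filter the difference was -0.38 (95% interval -0.80 to 0.03, unadjusted p = 0.0623, adjusted p = 0.432).

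TBX3 was the sole regulator with both oeDAZL libraries above both controls. It is a T-box repressor with roles in stem cells, extra-embryonic tissue and limb, and it lies on chromosome 12 (114670255 to 114684175, minus strand, 7 exons). It was listed at 192 TPM in each control and at 225 and 220 TPM in oeDAZL. The means were 192 ± 0.675 TPM (SD, n = 2) and 223 ± 3.29 TPM, a ratio of 1.16. The log2 difference of 0.21 (SE 0.05, 95% interval 0.09 to 0.34) had a limma p of 0.00532 unadjusted and 0.118 adjusted, beside 5.02% of all tested genes higher at an unadjusted p of at most 0.05. Without oeDAZL replicate 1 the unadjusted p was 0.0689. TBX3 made up between 85.3% and 90.3% of the summed TPM of the 10 regulators and was 16.9 times as high as PDGFRA in linear TPM. Its antisense neighbour TBX3-AS1, which shares exon bases with it, was listed between 0.574 and 1.29 TPM.

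Of the 10 regulators, 7 passed the filter and were tested. None was called at a fold of at least 2 in TPM + 1 with an unadjusted limma p of at most 0.05. Of all tested genes, 0.563% were called lower and 0.126% higher. TBXT, whose means differed 4.33-fold in linear TPM, missed this cut at -0.97 on the log2(TPM + 1) scale. None of the 7 passed an adjusted p of 0.05, as 10 genes of the whole table did (0.0599%). Both oeDAZL libraries lay below both controls for TBXT and PDGFRA among the 7 and above them for TBX3, beside 38.4% and 16.0% of all tested genes. Counting the 3 low genes too, 4 of the 10 lay below without overlap, where 28.3% of the 33251 genes with any value above 0 did. The median difference of the 7 was -0.16, and 5 of them were below 0. The median of all tested genes was -0.08, with 65.3% below 0. With n = 2 per group the smallest p that exact permutation of the libraries allows is 0.33, so no exact test could pass 0.05.

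**Figure D2:**
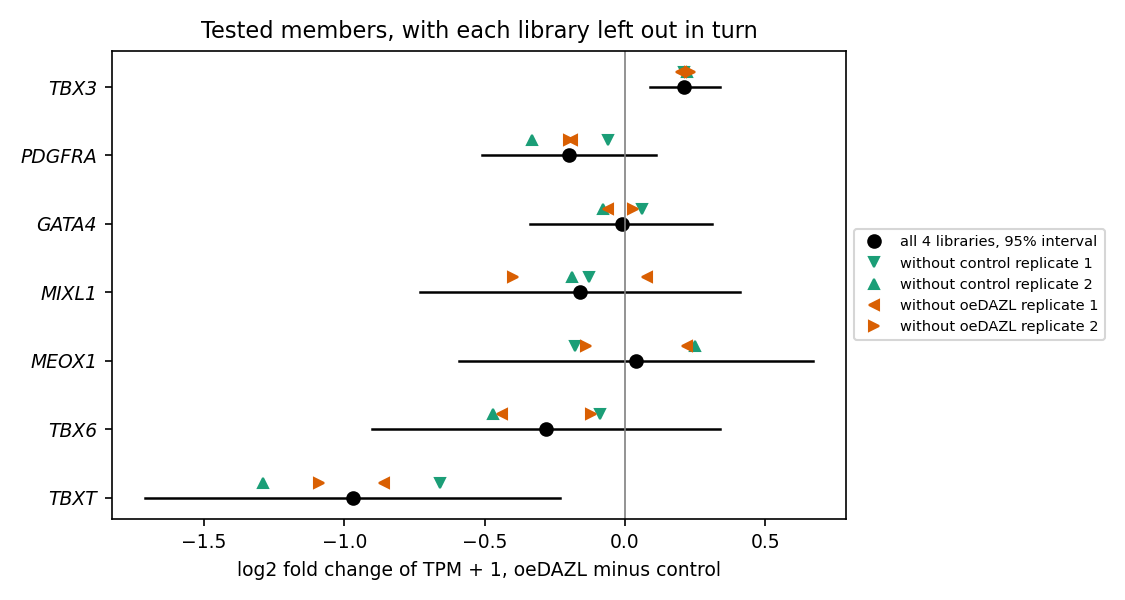
Difference between oeDAZL and control on the log2(TPM + 1) scale for the 7 tested regulators, as black points with the 95% interval from limma for all 4 libraries, and as triangles with 1 library left out. The intervals of TBXT (-1.71 to -0.23) and TBX3 (0.09 to 0.34) leave out 0, and the TBXT triangles run from -1.29 to -0.66.

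The balance of the whole table moved with the scaling. At an unadjusted p of at most 0.05, 2530 genes were lower and 838 higher. With median-of-ratios scaling the split was 1369 to 1873 and with quantile normalization 1514 to 1402, and the median of all genes was then 0.01. For the called genes the split was 94 lower and 21 higher, against 68 and 26 and against 52 and 41. Under these scalings the TBXT difference was -0.92 and -0.79 and that of TBX3 0.31 and 0.22.

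In order of mean TPM, the controls ran TBX3, PDGFRA, GATA4, MIXL1, TBXT, TBX6, MEOX1, EOMES, FOXF1 and MESP1. Neighbours whose libraries overlapped were MIXL1 with TBXT, TBXT with TBX6, TBX6 with MEOX1 and EOMES with FOXF1, so the order among them is not resolved. In oeDAZL the order was TBX3, PDGFRA, GATA4, MIXL1, MEOX1, TBX6, EOMES, TBXT, FOXF1 and MESP1. Libraries of MIXL1 overlapped those of MEOX1 there, and those of MEOX1 overlapped those of TBX6, so their order is not resolved either. TBXT stood in place 5 in the controls and in place 8 in oeDAZL, where its values overlapped those of EOMES and FOXF1.

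The signals that induce the streak were read from a list of 14 symbols, in which TDGF1 also stood as CRIPTO, and 7 were tested. None was called, beside 0.563% of all tested genes called lower and 0.126% higher. At an unadjusted limma p of at most 0.05, 3 were lower and 1 higher, beside 15.2% and 5.02% of all tested genes. BMP4, the most abundant of them and itself a culture factor of hPGCLC induction, was listed at 271 and 248 TPM in the controls and 154 and 170 TPM in oeDAZL. The groups were well apart, with a difference of -0.68 (SE 0.07, unadjusted p = 8.30e-05, adjusted p = 0.0836). CER1, a secreted inhibitor of NODAL and BMP, was listed at 4.53 and 3.71 TPM against 1.55 and 1.84 TPM, and WNT8A at 2.85 and 1.68 TPM against 0.258 and 1.31 TPM. TDGF1, the NODAL co-receptor, lay the other way at 5.05 and 8.26 TPM against 14.1 and 10.6 TPM, with a difference of 0.82 (adjusted p = 0.155). WNT3 also lay that way, at 6.65 and 6.90 TPM in the controls against 8.61 and 7.85 TPM in oeDAZL, with a difference of 0.25 (limma adjusted p = 0.334). LEFTY2, an inhibitor of NODAL, overlapped between the groups, with a difference of 0.07 (adjusted p = 0.854). The NODAL ligand overlapped too, at 2.68 and 3.22 TPM against 2.35 and 3.83 TPM.

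Of 14 other streak transcription factors, 9 were tested, and 2 were lower and 1 higher at an unadjusted p of at most 0.05 (15.2% and 5.02% of all tested genes were). None was called, beside 0.563% of all tested genes called lower and 0.126% higher. CDX2, a homeobox factor of posterior mesoderm and trophoblast, was listed at 22.8 and 20.4 TPM in the controls and 12.3 and 13.7 TPM in oeDAZL (difference -0.69, adjusted p = 0.0896). EVX1, a homeobox factor of the posterior streak, was listed at 4.26 and 2.80 TPM against 1.68 and 1.76 TPM. The repressors of E-cadherin that mark cells leaving the epithelium were not lower: SNAI2 was listed at 60.9 and 79.6 TPM against 90.1 and 90.7 TPM, and SNAI1 at 7.31 and 8.30 TPM against 7.97 and 10.1 TPM. MSGN1, a direct target of TBX6 and WNT in presomitic mesoderm, was too low to be tested, at 1.70 and 0.745 TPM against 0 and 0.186 TPM.

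**Figure D3:**
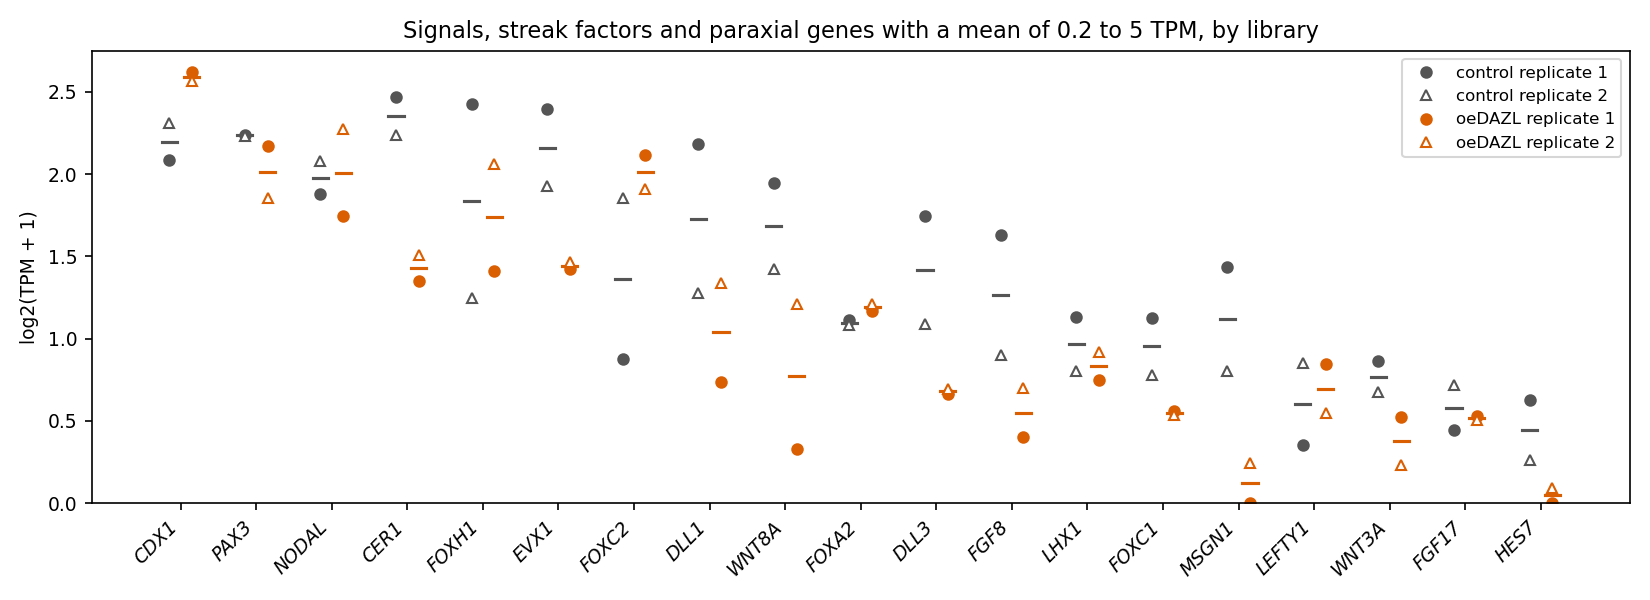
Level by library, on the log2(TPM + 1) scale, of the 19 signals, streak factors and paraxial genes whose mean lay between 0.2 and 5 TPM, with a dash at each group's mean. Both oeDAZL libraries lay below both controls for 10, beside 28.3% of the genes with any value above 0 and 38.4% of those tested. They lay above both controls for 3, beside 16.0% of those tested. Control replicate 1 was above control replicate 2 for 14, beside 58.3% of those tested. The mean was taken over all 4 libraries, and MSGN1 and HES7 reached 0.2 TPM only through the controls. The shares among all genes with a mean of 0.2 to 5 TPM were not computed.

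Among genes of paraxial mesoderm and somites, 6 of 15 were tested, and 1 was lower at an unadjusted limma p of at most 0.05. Of all tested genes, 15.2% were. That gene was DLL3, a modulator of NOTCH signalling in the presomitic mesoderm (2.35 and 1.13 TPM against 0.583 and 0.618 TPM, adjusted p = 0.242). It passed the filter only through the controls. LFNG, TCF15 and PAX3, the most abundant 3 of the list, had adjusted p between 0.392 and 0.543. In lateral plate and cardiac mesoderm, 12 of 13 genes were tested and none was called, beside 0.563% of all tested genes called lower and 0.126% higher. At an unadjusted limma p of at most 0.05, 4 were lower and 2 higher, beside 15.2% and 5.02% of all tested genes. HAND1, a basic helix-loop-helix factor of extra-embryonic and lateral mesoderm, was the most abundant, at 958 and 1042 TPM in the controls and 1250 and 1247 TPM in oeDAZL (difference 0.32, adjusted p = 0.0918). ISL1, a factor of cardiac progenitors and amnion, was listed at 80.5 and 55.2 TPM against 45.4 and 48.7 TPM (difference -0.49, adjusted p = 0.192). The receptors APLNR and KDR, which mark mesoderm progenitors, were also apart, with APLNR at 17.8 ± 0.156 TPM (SD, n = 2) in the controls against 11.3 ± 0.412 TPM (difference -0.61, adjusted p = 0.0896) and KDR at 12.6 and 12.7 TPM against 8.39 and 8.23 TPM (difference -0.55, adjusted p = 0.0962).

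The families of the regulators were read as well. Of 13 other T-box genes 3 were tested, MGA, TBX20 and TBX19, with adjusted p between 0.597 and 0.984. Of 7 other GATA genes and cofactors, GATA2 was listed at 46.5 and 54.8 TPM against 61.9 and 60.2 TPM (difference 0.27, adjusted p = 0.193), while GATA3, at 106 and 102 TPM against 98.4 and 102 TPM, had an adjusted p of 0.638 and GATA6 of 0.566. Among PDGF genes the sister receptor PDGFRB was listed at 48.8 and 52.7 TPM against 44.5 and 40.3 TPM (difference -0.25, adjusted p = 0.178) and the ligand PDGFC at 14.9 and 16.3 TPM against 9.80 and 12.5 TPM (difference -0.46, adjusted p = 0.164). The ligands PDGFA and PDGFB had adjusted p of 0.285 and 0.343. Of 4 genes of intermediate mesoderm only WT1 was tested, at 1.15 and 0.781 TPM against 2.59 and 2.24 TPM (difference 0.80, adjusted p = 0.155), while OSR1 and PAX2 lay under the filter.

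These lists held 82 symbols, and CRIPTO, which was absent from the table, is another name of TDGF1. The other 81 were in the table and 46 were tested. None was called, beside 0.563% of all tested genes called lower and 0.126% higher. At an unadjusted p of at most 0.05, 12 were lower and 6 higher, beside 15.2% and 5.02% of all tested genes, a split of 8 to 11 with median-of-ratios scaling and of 9 to 11 with quantile normalization. The median difference was -0.13, and 28 of the 46 were below 0, where the median of all tested genes was -0.08 with 65.3% below 0. WNT8A and DLL3 passed the filter only through the controls and WT1 only through oeDAZL.

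**Figure D4:**
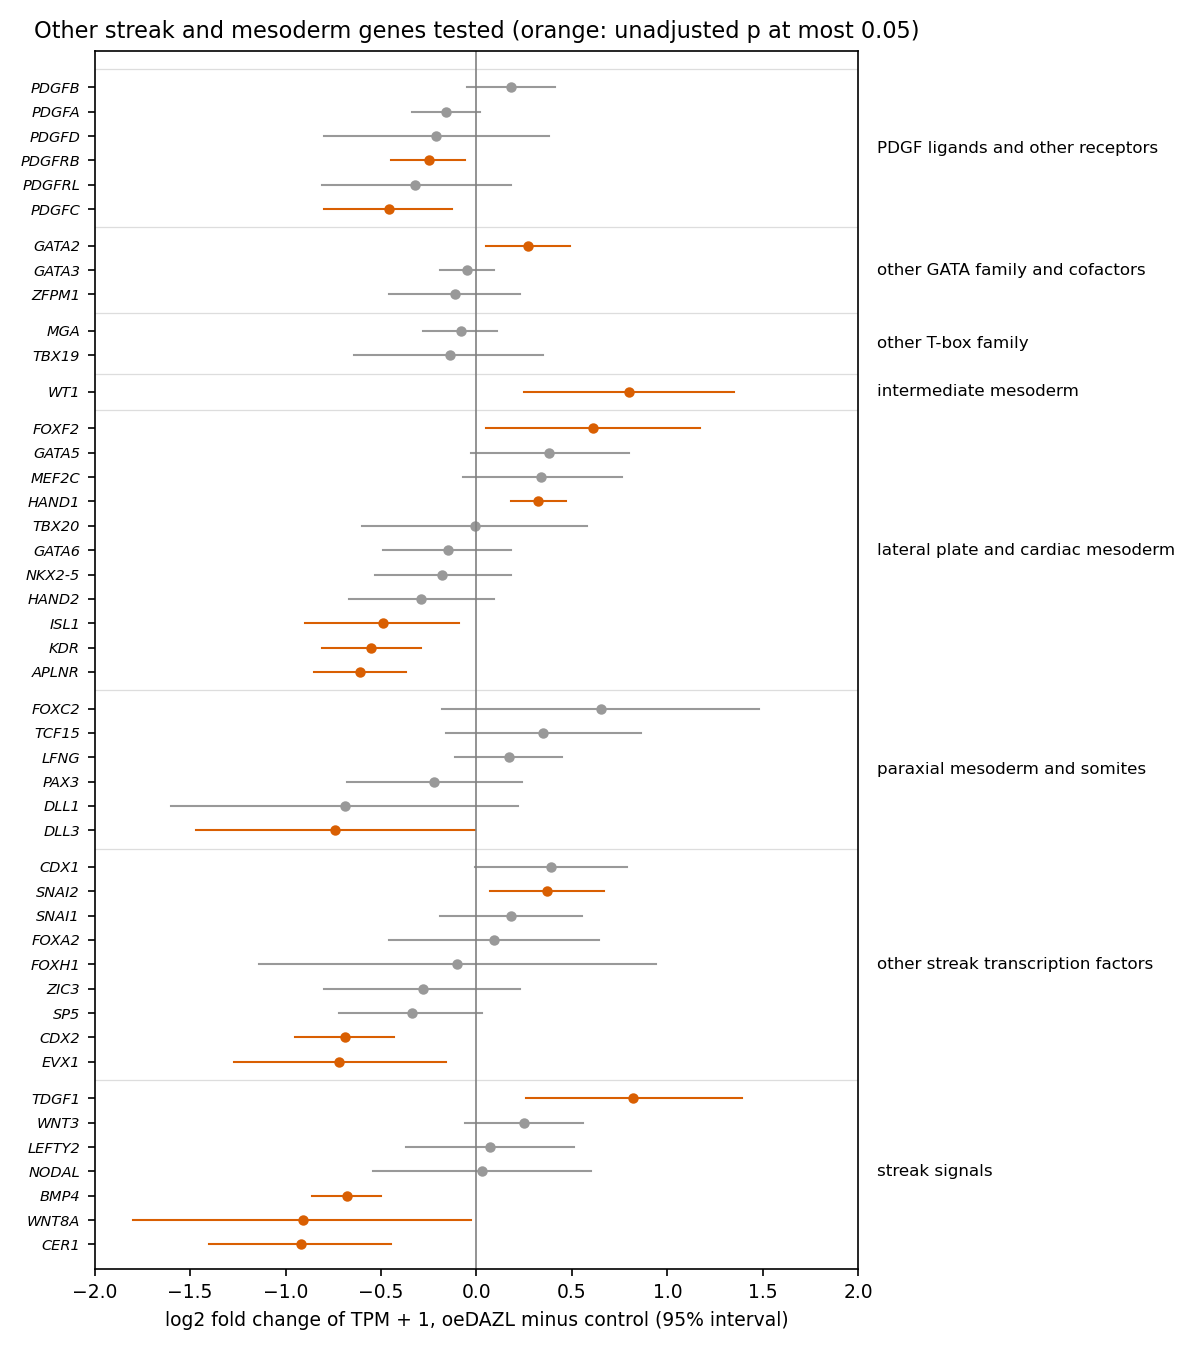
Difference between oeDAZL and control on the log2(TPM + 1) scale for 45 of the 46 tested genes of these lists, grouped by list, as points with 95% intervals from limma, and in orange where the unadjusted p was at most 0.05. CER1 (-0.92) and WNT8A (-0.91) lie lowest and TDGF1 (0.82) and WT1 (0.80) highest.

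Markers of other cell types moved in the same libraries, and their part in the results above was not tested. The 9 endoderm markers summed to 281 and 173 TPM in the controls and 175 and 217 TPM in oeDAZL, and AFP, a protein of yolk sac and fetal liver, was called lower at 36.3 and 13.1 TPM against 8.91 and 11.6 TPM (difference -1.04, adjusted p = 0.243). PAX6, a factor of neural and eye progenitors, was called lower at 3.83 and 1.14 TPM against 0.0967 and 0.558 TPM (difference -1.30, adjusted p = 0.189), and it passed the filter only through the controls. In both, as in TBXT, control replicate 1 held the highest value. CGA, the hormone subunit of trophoblast, was called lower at 15.5 and 10.4 TPM against 4.34 and 5.82 TPM (difference -1.18, adjusted p = 0.0896). The 8 neural markers summed to 440 and 578 TPM against 690 and 635 TPM, most of it NES and TUBB3. The 9 markers of contractile muscle, led by TAGLN and ACTC1, summed to 1754 and 2350 TPM against 2095 and 2003 TPM. The 9 of endothelium and blood, led by RUNX1 and KDR, summed to between 49.7 and 55.7 TPM, and of their defining genes PECAM1 and HBZ were listed at 0 in all 4 libraries, while the endothelial genes TEK and CDH5 were listed at 5.34 to 6.72 TPM and 1.92 to 2.56 TPM. LIN28A and L1TD1 led the pluripotent list, TFAP2C and PDPN the germ cell list, IGFBP3 and GABRP the amnion list, and APOA1 and TTR the endoderm list, and of these only IGFBP3 and PDPN had an unadjusted p of at most 0.05, both higher.

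Since the study concerns DAZL and miRNA processing, the 3′UTRs of the regulators were searched for sites of 5 miRNAs that it discusses. Others that it discusses were not searched. The reference used lacked miR-10b-5p, and miR-199a-5p was not on the list searched. The mature sequences of the 5 are printed with the seed, bases 2 to 8, in capitals, and no seed is shared between them.
let-7a-5p: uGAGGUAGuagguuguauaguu
miR-21-5p: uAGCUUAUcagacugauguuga
miR-22-3p: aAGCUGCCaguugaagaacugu
miR-125b-5p: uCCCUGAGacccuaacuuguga
miR-199a-3p: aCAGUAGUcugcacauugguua
An 8mer site, the complement of the seed followed by A, was found in none of the longest 3′UTRs of the 10 regulators. The complement of the seed without that A was found 1 time each in MIXL1 for miR-21-5p and in PDGFRA and TBX3 for miR-199a-3p. Among 13048 tested genes with a 3′UTR, 4.73% held an 8mer site for let-7a-5p, 2.95% for miR-21-5p, 2.51% for miR-22-3p, 6.22% for miR-125b-5p and 3.04% for miR-199a-3p. The share of genes holding the match without that A was not computed. GTT, the triplet that DAZL recognizes as GUU in RNA, occurred 21.2 times per 1000 bases of the TBXT 3′UTR and 22.1 times in that of TBX3. The values were 19.2 for MIXL1 and PDGFRA, 18.7 for EOMES, 15.8 for FOXF1, 11.1 for GATA4, 9.86 for MEOX1 and 6.9 for TBX6. MESP1 had 3.72, from 1 triplet in 269 bases. Among tested genes the median was 15.6 and the quartiles 11.5 and 19.2. These counts describe the sequence and not binding.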

How the data were processed

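RNA was sequenced from 2 control and 2 oeDAZL libraries of H9-derived cells. The authors deposited TPM per gene, 1 column per library. Per the study's methods, reads were trimmed with TrimGalore, uniquely aligned by HISAT2 (hg38) and then quantified in StringTie. The submitters' processing notes, which cover the whole series, name Trim Galore 0.6.4, HISAT2 2.1.0 and StringTie 2.1.4, and the methods give another version of TrimGalore. The annotation release is not given in the sources used here. The table has 65003 entries, from which 45 pseudoautosomal copies on chromosome Y and 18 repeats were removed, and 31689 genes were listed at 0 throughout. Where a symbol had 2 entries, as GATA4 did, the one with the higher mean was used.

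Analysis was done on log2(TPM + 1), a pseudocount of 1. A filter on the mean TPM over the 4 libraries (at least 1) left 16687 genes. These were compared between oeDAZL and control in limma 3.58.1 under R 4.3.3, using lmFit and a trended eBayes and no covariate. A gene was called if its TPM + 1 differed by a fold of 2 or more with an unadjusted p of 0.05 or less. These cut-off values are those of the study, whose own test needs read counts that TPM does not keep. The study's fold came from such counts, and the pseudocount makes the same cut stricter here for genes near 1 TPM. Adjusted p-values are Benjamini-Hochberg over all genes tested, and intervals cover 95%. Genes below the filter were fitted once with all 33251 genes above 0. In data simulated for 16687 genes in this comparison, 98.5% of genes changed by 2 on the log2 scale and 50.5% of those changed by 1 were called in the right direction, and 0.117% of unchanged genes were called.

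The members, lists and tests were chosen with earlier results of these data known. The text names all members, DAZL, every called gene of a list and the 3 most abundant genes of each other list (2 for markers). Of the lists, 1 gene is counted but not reported here by name. The other list genes and markers named with values were chosen after their values were seen. Gene models and 3′UTRs are those of GENCODE 44 on hg38. Promoters and miRNAs are those of RefSeq (GRCh38.p14), which gave promoters for 5 of the 10 members. Alternatives were a pseudocount of 0.1, no filter, a mean TPM of at least 5, median-of-ratios scaling, quantile normalization, mitochondrial genes left out, no trend, a replicate block and each library left out.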

Additional observations from a re-analysis of the deposited data

How the results depend on the processing

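The TBXT difference was below 0 in all 13 fits that tested it, from -1.85 to -0.66, with an unadjusted p of at most 0.05 in 11. The TBX3 difference was above 0 in all 14, from 0.20 to 0.31, with an unadjusted p of at most 0.05 in 13. MIXL1 ranged from -0.40 to 0.08, MEOX1 from -0.18 to 0.25 and GATA4 from -0.08 to 0.11, so their directions turned. No member passed an adjusted p of 0.05 in any fit run. The causes of the changes that follow were not tested.

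Over all genes, 94 were called lower and 21 higher in the fit reported. A pseudocount of 0.1 gave 267 and 55, a stricter filter (mean TPM from 5 upward, so fewer genes tested) 23 and 6, and quantile normalization 52 and 41. At an unadjusted p of at most 0.05, the 2530 lower and 838 higher genes became 1369 and 1873 with median-of-ratios scaling and 1514 and 1402 with quantile normalization. With 1 library left out, the remaining library of its group is assumed to vary like the other group. Called genes then numbered 85 to 235 lower and 35 to 87 higher, and those at an unadjusted p of at most 0.05 numbered 1226 to 3295 lower and 357 to 1341 higher. The genes with an adjusted p under 0.05, 10 in the fit reported, numbered 673 without control replicate 2 and 1 without the trend.

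Among the 7 regulators tested, 1 was called lower with a pseudocount of 0.1, beside 267 of 16687 genes. Without mitochondrial genes 1 was called lower, beside 104 of 16650 genes. TBXT was the gene in each case. At an unadjusted p of at most 0.05, 2 were lower without the filter (TBXT and MESP1) and 0 under the stricter filter, which leaves TBXT out. With a library left out 0 to 2 were lower and 0 to 1 higher. Among the 46 other streak and mesoderm genes tested, 2 were called lower and 1 higher with a pseudocount of 0.1, beside 267 and 55 of 16687 genes. At an unadjusted p of at most 0.05, 11 were higher with median-of-ratios scaling and 11 with quantile normalization, and 7 to 11 were lower and 2 to 10 higher with a library left out.

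Replicate numbers were shared between the groups, and deviations of same-numbered libraries correlated at -0.104 over 16687 genes. With so few libraries this value cannot tell whether same-numbered libraries were prepared together, so the pairing is unresolved. With a replicate block 99 genes were called lower and 26 higher, 4 had an adjusted p under 0.05, and the TBXT difference of -0.97 had an unadjusted p of 0.0241. With the numbers crossed, an alternative chosen after seeing the data, 107 were called lower and 28 higher and 1089 had an adjusted p under 0.05. TPM keeps no depth, so how far counting error limits the genes near 1 TPM is unknown.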

Other observations

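Markers of other states, named here after their values were seen, were also apart between the groups. POU5F1, a factor of pluripotent and germ cells, was listed at 13.6 and 10.6 TPM in the controls and 22.4 and 20.4 TPM in oeDAZL, a difference of 0.79 (limma adjusted p = 0.0896). Its list of pluripotent markers did not move together, as 3 of its 6 tested genes were below 0, SOX2 among them at -0.60 (adjusted p = 0.300). TNNT2, the cardiac troponin T gene, was listed at 26.0 and 22.4 TPM against 14.4 and 14.6 TPM, a difference of -0.70 (adjusted p = 0.0896). ACTA2, the smooth muscle actin gene, was listed at 308 and 343 TPM against 210 and 221 TPM, a difference of -0.59 (adjusted p = 0.0836). Of the 9 genes of the same contractile list, both oeDAZL libraries lay below both controls for 6 and above them for 0. Of all genes with any value above 0, 28.3% lay below in this way. The most abundant genes of the list did not lie lower, with TAGLN at 0.03 (adjusted p = 0.909) and ACTC1 at 0.27 (adjusted p = 0.456), and the list's sums overlapped between the groups. For POU5F1, TNNT2 and ACTA2 alike both oeDAZL libraries lay on the same side of both controls, and none of the 3 passed an adjusted p of 0.05 or a fold of 2.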
